A study of Mus musculus with 2 samples.

Results

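The miR-26 family of the mouse is made from 3 microRNA genes, Mir26a-1, Mir26a-2 and Mir26b, each inside a gene of the Ctdsp family. They were found by matching the Ensembl identifiers of the count tables to GENCODE symbols, and they are 3 of the 1973 microRNA genes listed. The tables come from small RNA sequencing of whole kidney tissue of newborn mice of strain B6NCrl (postnatal day 0). Each of the 2 samples holds the 2 kidneys of 1 pup, and the labels place both pups under the same pregnancy. No allele, transgene or treatment is named in the labels, and sex was not collected. Both pups form 1 group, so no test between conditions exists, and the comparisons are those among the family's genes, with other microRNA genes, and between the libraries of both pups.

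A microRNA guides an Argonaute protein to messenger RNAs that pair with its seed, the bases 2 to 8 from its 5′ end. The precursor is a hairpin whose 5′ side (5p arm) or 3′ side (3p arm) can become the mature strand. miR-26 is known to slow the cell cycle at the step from G1 to S phase and to repress Ezh2, a methyltransferase of the Polycomb complex. Its host genes, Ctdspl, Ctdsp2 and Ctdsp1, encode small phosphatases that act on the C-terminal domain of RNA polymerase II. They are known for helping to silence neuronal genes outside the nervous system, and Ctdspl also for acting on the retinoblastoma protein.

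The RefSeq hairpins are shown first because they decide which reads could be counted for which gene. Both arms are in capitals, and the strand of the gene is written 5′ to 3′.
Mir26a-1: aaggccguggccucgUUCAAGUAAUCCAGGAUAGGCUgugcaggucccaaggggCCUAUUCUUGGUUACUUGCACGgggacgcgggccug
Mir26a-2: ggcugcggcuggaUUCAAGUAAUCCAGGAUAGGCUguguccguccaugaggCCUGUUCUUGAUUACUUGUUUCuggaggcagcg
Mir26b: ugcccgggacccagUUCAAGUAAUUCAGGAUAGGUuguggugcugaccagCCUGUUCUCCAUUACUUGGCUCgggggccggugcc
The hairpins are 90, 84 and 85 bases long in that order, and all 3 are identical to the GENCODE transcripts of the same names. RNAfold gave them minimum free energies of -49.4, -44.5 and -43.5 kcal/mol.

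The mature strands are shown with the seed in capitals.
miR-26a-5p, made from both Mir26a-1 and Mir26a-2: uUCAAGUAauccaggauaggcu
miR-26b-5p: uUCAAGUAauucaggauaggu
miR-26a-1-3p: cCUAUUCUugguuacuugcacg
miR-26a-2-3p: cCUGUUCUugauuacuuguuuc
miR-26b-3p: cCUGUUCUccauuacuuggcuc
All 3 genes carry the same 5p seed, UCAAGUA, and among 1738 mature entries of the RefSeq table no other gene carried it. miR-26a-5p and miR-26b-5p differ outside the seed at 2 of 21 compared positions, C11U and C21U (miR-26a base, position from the 5′ end, miR-26b base), and miR-26a-5p is 22 bases long against 21. The 3p strands are less alike. miR-26a-1-3p and miR-26a-2-3p differ at 6 of 22 positions, one of them, A4G, within the seed. miR-26b-3p shares the seed of miR-26a-2-3p and differs from it at 4 positions.

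The hairpins of Mir26a-1 and Mir26a-2 have a stretch of 25 bases in common, which begins at the first base of the 5p arm and runs 3 bases past its end. A read of 25 bases or fewer that starts at the first base of miR-26a-5p therefore matches both genes, and a read of 26 bases from that start matches 1. Of all windows of 22 bases, 4 of 69 in Mir26a-1 and 4 of 63 in Mir26a-2 occurred in another annotated mouse hairpin, against 0 of 64 in Mir26b. Windows from the start of the 3p arm were unique in all 3 genes at every length from 18 to 26 bases. The genome outside annotated hairpins was not searched. The counts of the Mir26a genes thus leave out any of their 5p reads that the tables list as multimapping. By exact match among annotated hairpins, the 5p and 3p reads of Mir26b can both be placed.

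**Figure D1:**
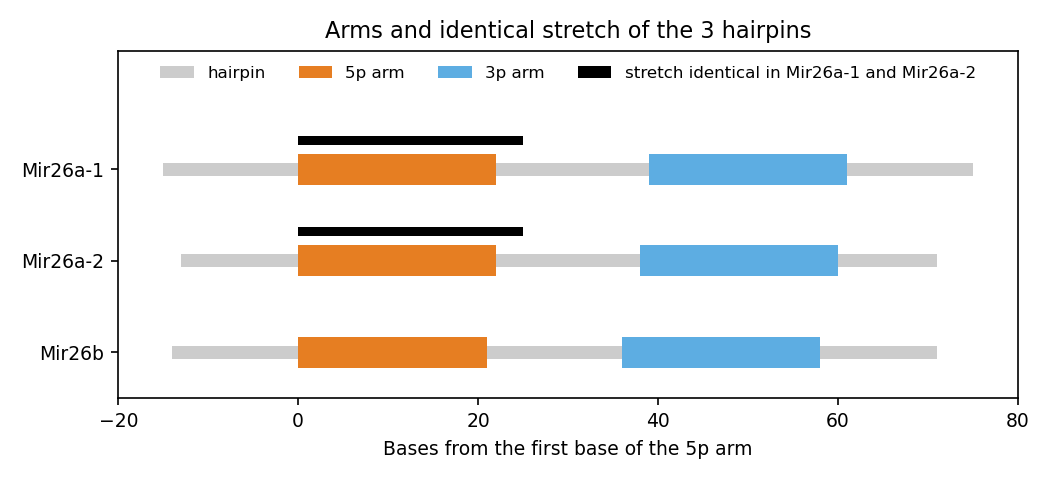
Map of the 3 miR-26 hairpins, with the distance in bases from the first base of the 5p arm on the x axis and 1 row per gene (grey, hairpin; orange, 5p arm; blue, 3p arm). The black bar above Mir26a-1 and Mir26a-2 marks the 25 bases identical in both, which cover the whole 5p arm and no base of the 3p arm.

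On mm10, Mir26b (ENSMUSG00000065468.1) occupies bases 74394310 to 74394394 of chromosome 1 (plus strand), in intron 4 of the principal Ctdsp1 transcript. That intron is 564 bases long, and the hairpin sits 234 bases after the exon before it and 245 bases ahead of the next. Mir26a-1 (ENSMUSG00000065513.1) occupies bases 119031796 to 119031885 of chromosome 9 (plus strand), in intron 5 of Ctdspl, which is 3283 bases long. Mir26a-2 (ENSMUSG00000065430.1) occupies bases 126995530 to 126995613 of chromosome 10 (plus strand), in intron 5 of the principal Ctdsp2 transcript, which is 1946 bases long. From the RefSeq start site of the host to the hairpin were 2701 bases in Ctdsp1, 105260 in Ctdspl and 16813 in Ctdsp2. The host genes span 5777, 117546 and 21259 bases in the same order. Ctdsp2 also has a second start site in RefSeq at 126995613, which is the last base of the Mir26a-2 hairpin, and 2 shorter GENCODE transcripts of Ctdsp2 begin with an exon at that base. All 3 genes are transcribed in the direction of their hosts. Messenger RNAs of the hosts are not among the genes counted, so their levels were not measured here.

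Mir26b was among the most abundant microRNAs of the newborn kidney in counted reads, and both Mir26a genes were low. Mir26b had 178335 counts in pup 1 and 110953 in pup 2. Mir26a-2 had 335 and 245 counts, and Mir26a-1 had 133 and 85. The depth behind them was 5832192 counts over all genes in pup 1 and 3846704 in pup 2. No read fell on the strand opposite to any of the 3 genes in either pup.

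Counts were scaled by the library's total over all named genes to CPM, the counts a library would hold at a total of 1000000, and the intervals beside them are 95% Wilson intervals. All intervals here cover counting error alone, since PCR copies of a molecule were not marked and reads are not independent. Mir26b stood at 30578 CPM in pup 1 (30438 to 30718) and 28844 CPM in pup 2 (28677 to 29011), with a mean of 29711 ± 1226 (SD, n = 2). Mir26a-2 stood at 57.4 CPM in pup 1 (51.6 to 63.9) and 63.7 in pup 2 (56.2 to 72.2), with a mean of 60.6 ± 4.42. Mir26a-1 stood at 22.8 CPM (19.2 to 27.0) and 22.1 (17.9 to 27.3), with a mean of 22.5 ± 0.50. The order Mir26b, Mir26a-2, Mir26a-1 was the same in both pups, and the levels of no pair of these genes overlapped. CPM were not divided by length, since the hairpins differ by few bases and reads come from the arms. The yield of reads per molecule was not measured, so the order is one of reads.

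**Figure D2:**
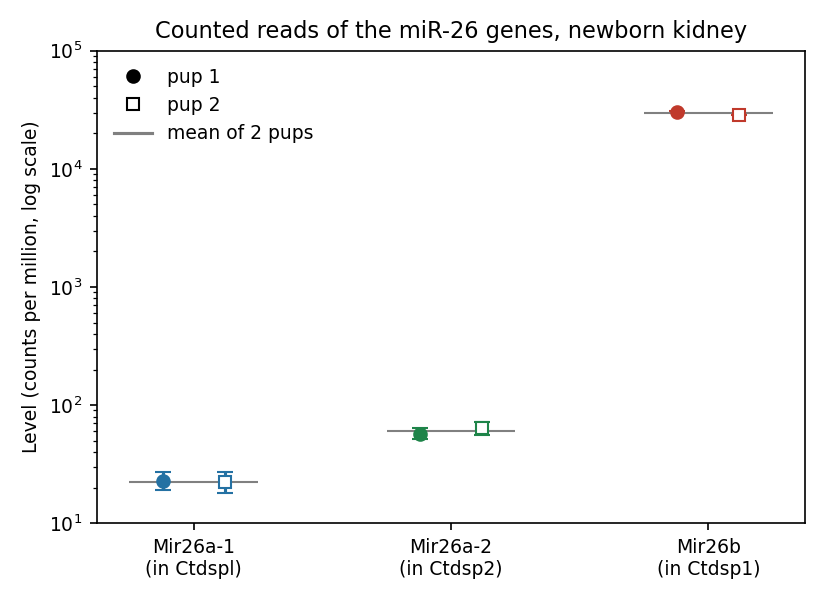
Level of each miR-26 gene in CPM on a log axis, with the host gene named below it; filled circles are pup 1, open squares pup 2, bars the 95% Wilson interval and grey lines the mean of both pups. Mir26b lies at 29711, Mir26a-2 at 60.6 and Mir26a-1 at 22.5 CPM on average, and the pups lie close together in each.

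The family held 3.07% of counts in pup 1 and 2.89% in pup 2, a mean of 2.98% ± 0.122 (SD, n = 2). Mir26b supplied 99.738% of the family's counts in pup 1 (99.714 to 99.761 as a Wilson interval) and 99.704% in pup 2 (99.670 to 99.734). It stood 381 times above both Mir26a genes together in pup 1 and 336 times in pup 2. Since miR-26a-5p reads can match both Mir26a genes, that distance compares the placed reads of Mir26b with only a part of the Mir26a reads.

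Multimapping reads numbered 3038663 in pup 1 and 2075718 in pup 2, which is 30.3% and 31.0% of all reads. That is 17.0 times the count of Mir26b in pup 1 and 18.7 times in pup 2. For the Mir26a genes together to equal Mir26b, 5.85% of the multimapping reads of pup 1 and 5.33% of those of pup 2 would have to be miR-26a. The tables do not say which microRNAs the multimapping reads belong to, so the amount of miR-26a-5p in this tissue is not bounded by the counts, and whether miR-26a or miR-26b was the more abundant was not measured.

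Between the Mir26a genes, whose counts rest on reads that do not lie wholly inside the shared stretch, Mir26a-2 had the higher count in both pups. The ratio of Mir26a-2 to Mir26a-1 was 2.52 in pup 1 (exact 95% binomial interval 2.05 to 3.10) and 2.88 in pup 2 (2.24 to 3.73), a mean of 2.70 ± 0.257 (SD, n = 2). The ratio did not differ between the pups beyond counting error (Fisher's exact test, two-sided p = 0.42). A 3p strand, a longer 5p read or a read that starts ahead of the arm can all be placed, and the tables do not separate them, so the ratio is not one of miR-26a-5p output.

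Among all microRNA genes by mean CPM, Mir26b took place 10, Mir26a-2 place 179 and Mir26a-1 place 217. The genes just above Mir26b were Mirlet7i of the let-7 family (38857 ± 3156 CPM), Mir143, known from smooth muscle (36917 ± 2966), and Mir30e of the miR-30 family (31966 ± 3330). Just below it were Mir130a (29536 ± 372), Mir99a (25516 ± 3323) and Mir23b (24272 ± 65.8). The values of Mir26b in both pups lay below those of Mirlet7i and Mir143 and above those of Mir99a and Mir23b. They overlapped with those of Mir30e and Mir130a over the pups. Within each pup Mir30e stood above Mir26b, at 34320.5 against 30578 CPM in pup 1 and 29611 against 28844 in pup 2. Mir26b and Mir130a changed places, with Mir26b at place 10 in pup 1 and place 11 in pup 2, so their order is not resolved by 2 pups. None of the genes above Mir26b shares 22 bases with another hairpin, so its place among genes without such a stretch is 10 as well. The counts of genes with such a stretch leave out reads listed as multimapping, so these places are those of placed reads only.

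Nearest to Mir26a-2 by mean CPM were Mir300 (66.0 ± 7.45) and Mir345 (64.2 ± 0.672) above it and Mir338 (60.4 ± 5.27) and Mir92-2, a gene of miR-92a (57.7 ± 3.28), below it. Each of these 4 overlapped with Mir26a-2 over the pups, so its place in this stretch of the ranking is not resolved. Above Mir26a-1 came Mir665 (23.4 ± 1.10 CPM) and Mir34b of the miR-34 family (23.2 ± 0.603), which overlapped with it. Below it came Mir452 (19.8 ± 1.56) and Mir3105 (19.8 ± 1.80), which were lower than Mir26a-1 in both pups. Counting error does not separate them in pup 2, where both (18.7 and 21.1 CPM) lay inside the Wilson interval of Mir26a-1 (17.9 to 27.3). In pup 1, Mir452 (20.9) lay inside the interval of Mir26a-1 for that pup (19.2 to 27.0), and Mir3105 (18.5) lay below it.

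**Figure D3:**
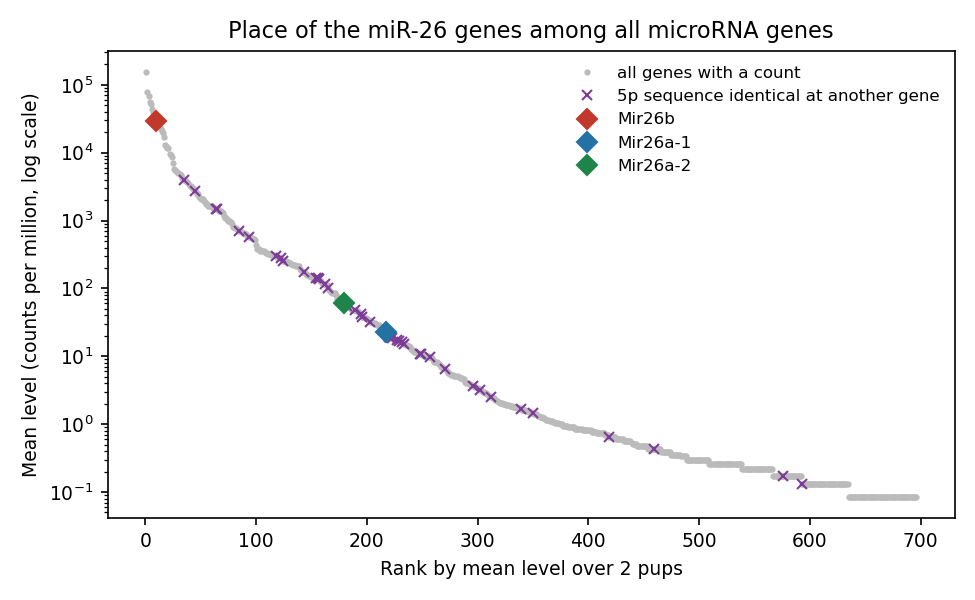
Mean level over 2 pups (CPM, log axis) of each gene with at least 1 count against its rank; diamonds are the miR-26 genes and crosses other genes whose 5p sequence is identical at another gene. Mir26b sits at rank 10, left of every cross, while Mir26a-2 at rank 179 and Mir26a-1 at rank 217 sit among the crosses.

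How the Mir26a genes compare with other genes of the same kind was asked next. Identical 5p sequences in several genes numbered 31 among the RefSeq entries, in 65 genes, 3 of which have no 5p entry of their own and were placed by the sequence inside their hairpin. Of these, 57 have a row in the count tables. Those 57 genes held 1.30% of counts in pup 1 and 1.32% in pup 2, with a median level of 10.8 CPM, and none reached the level of Mir26b. At 1000 CPM or more were 4 of these 57 genes, against 62 of 562 genes whose 5p sequence is listed for 1 gene only. At 10 CPM or more were 30 of the 57 against 183 of the 562, so which kind had the larger share depended on the level chosen. The highest were Mirlet7f-2 (4015 ± 60.6 CPM), Mir16-1 (2731 ± 141), Mir181a-1 (1493 ± 95.8), Mir196a-2 (1483 ± 44.5), Mir16-2 (708 ± 32.8) and Mir181b-2 (571 ± 154). All of these stood above Mir26a-2. As for miR-26a, the counts of such genes leave out reads listed as multimapping.

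For 17 of these 5p sequences, both of 2 genes were counted in the tables, and the miR-26a pair took place 10 among them by its summed level of 83.0 CPM. The pairs differed widely in how evenly the placed reads were spread. The genes of miR-125b were nearly even, with a ratio of the higher to the lower of 1.07 in pup 1 and 1.08 in pup 2. Those of miR-16 were at 3.84 and 3.87, close above the miR-26a pair. The genes of miR-181a were far apart, at 35.1 and 28.6, and so were those of miR-196a, at 41.3 and 51.6. Over the 13 pairs with at least 10 counts in each gene and pup, the mean ratio ran from 1.08 to 81.3 with a median of 1.54, and that of the miR-26a pair was 2.70.

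**Figure D4:**
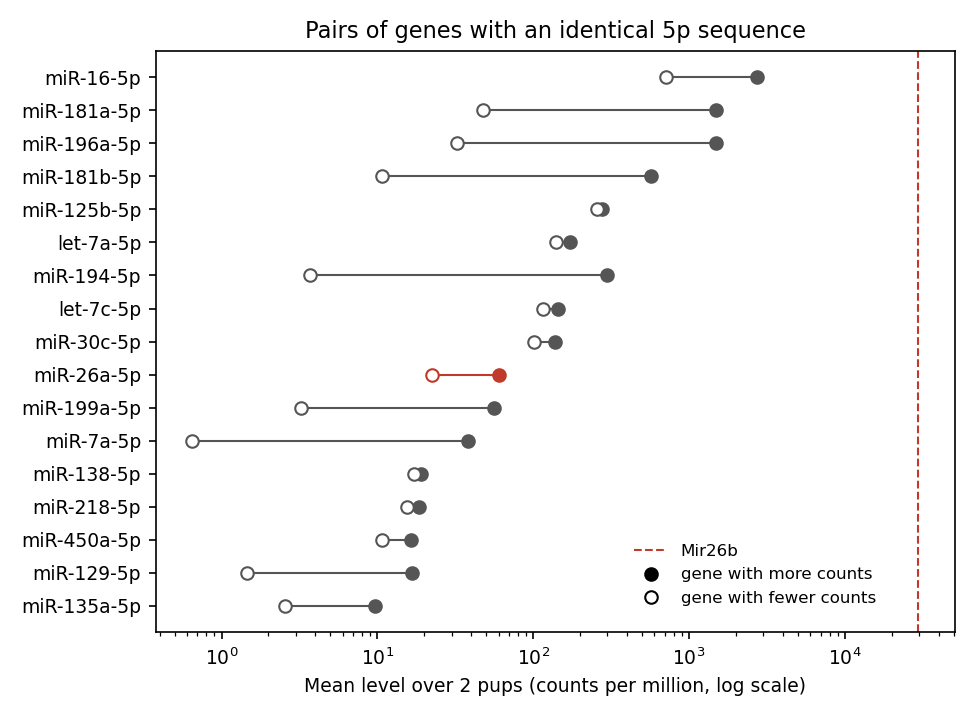
Mean level over 2 pups (CPM, log axis) of both genes of each pair with an identical 5p sequence, 1 pair per row in order of summed level; filled points are the gene with more counts, open points the other, and the dashed line is Mir26b. The miR-26a pair, in red, lies at 60.6 and 22.5 CPM, and every pair lies left of the dashed line.

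Mir26b differed slightly between the libraries of the pups, and no difference was detected for the Mir26a genes. The comparison used an exact two-sided binomial test of both counts given their sum and the effective library sizes, with Benjamini-Hochberg adjustment over the 324 genes whose counts averaged 10 or more, a filter that all 3 miR-26 genes passed. It has 1 library on each side, so it compares those libraries and knows counting error only. Mir26b was 0.930 times as high in pup 2 as in pup 1, a log2 ratio of -0.11 (-0.12 to -0.09 as an exact 95% counting interval, with an adjusted p of 2.7e-80). The log2 ratio was 0.13 for Mir26a-2 (-0.12 to 0.37, adjusted p = 0.47) and -0.06 for Mir26a-1 (-0.48 to 0.34, adjusted p = 0.90) by the same exact test. At the depth of the Mir26a genes, the counts allow any ratio within those intervals, so a difference of that size is not excluded.

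The same test called 33.6% of all tested genes, 12.7% as higher and 21.0% as lower in pup 2 (41 and 68 genes), so 1 of 3 miR-26 genes is near the background. With TMM factors taken over the filtered genes, chosen after seeing the data, the split was 48 higher and 50 lower, and Mir26b remained lower with a log2 ratio of -0.08. Over all tested genes the median absolute log2 ratio was 0.15, and 38.6% of genes had a ratio as small as that of Mir26b or smaller. Of the 51 genes whose counts averaged 10000 or more, 40 passed. edgeR's exact test, which takes the spread between the pups as its error (biological coefficient of variation 9.29%), called 0.309% of the tested genes and gave an adjusted p of 1 for each of the 3 miR-26 genes. That spread was estimated from the same difference, so it is no independent check. Markers of other cells also differed between the libraries. Endothelial Mir126a stood at 71968 CPM in pup 1 and 87209 in pup 2, and the blood markers Mir451a, Mir144 and Mir223 summed to 557 and 376 CPM. Of these, Mir451a, a microRNA of red cells, fell from 208 to 53.6 CPM (adjusted p of 5.8e-97 by the exact binomial test). Mir144, which lies just ahead of Mir451a on the same strand of chromosome 11, rose from 32.2 to 42.9 (adjusted p = 0.039 by the same test). Mir223 of myeloid cells fell from 317 to 280.0 (adjusted p = 0.0014 by the same test). The blood markers thus did not all move the same way. The part of the endothelial and blood markers in the difference of Mir26b was not tested. In whole tissue fewer cells of a type and less RNA per cell cannot be told apart.

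**Figure D5:**
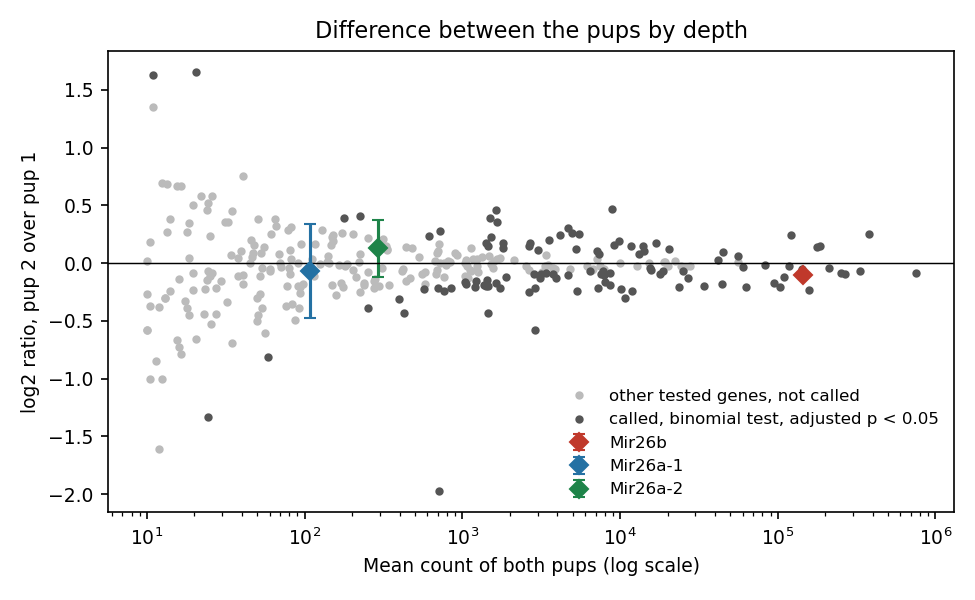
The log2 ratio of pup 2 over pup 1 against the mean count of both pups (log axis) for the 324 tested genes; dark points passed the exact binomial test and diamonds with 95% counting intervals are the miR-26 genes. Mir26b lies just below 0 with an interval narrower than its symbol, and the intervals of both Mir26a genes cross 0.

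The tissue label was checked against marker microRNAs. All 5 genes of the epithelial miR-200 family were counted, with a sum of 31551 CPM in pup 1 and 31660 in pup 2. The liver marker Mir122 was at 56.9 and 44.2 CPM, the adrenal and pancreas marker Mir375 at 117 and 141, and the muscle marker Mir206 at 5.14 and 4.42. Also listed for adrenal and pancreas, the miR-7a genes Mir7-1 and Mir7-2 averaged 38.4 and 0.647 CPM. The 3 neural Mir124a genes had 0 counts, which for genes with identical copies does not bound their level. The 4 proximal tubule genes (Mir192, Mir194-1, Mir194-2 and Mir215) summed to 848 and 896 CPM.

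Mir26b was then set beside other microRNAs with the roles known for miR-26. Of 10 listed microRNA genes known to target Ezh2, 9 have a row under those symbols and none stood above Mir26b in placed reads. The counts of 5 of the 9 leave out reads listed as multimapping, so they do not bound the levels of these genes. They are Mir138-1, Mir138-2 and the 3 Mir124a genes, which share a stretch with another hairpin. Mir98 of the let-7 family reached 5713 ± 2.13 CPM, Mir214 of mesenchyme 4141 ± 15.1, and the miR-101 genes Mir101b and Mir101a 1527 ± 74.1 and 218 ± 5.49. Between the pups, 1 of 6 tested genes of this list was called higher, Mir101b with a log2 ratio of 0.08 (adjusted p = 0.0053 by the exact binomial test), and 0 lower. Over all tested genes 12.7% were called higher and 21.0% lower, so 1 of 6 is near the background. The list's median log2 ratio was 0.0044, against -0.04 over all tested genes.

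Of 28 listed microRNA genes that restrain the cell cycle at G1 to S, 24 have a row under those symbols. In placed reads, 3 stood above Mir26b. These were Mirlet7g (51758 ± 1572 CPM), Mir322 of the extended miR-15/16 family (43791 ± 436) and Mirlet7i. The counts of 7 of the 24 leave out reads listed as multimapping, because these genes share a stretch with another hairpin. In pup 2, 3 of 21 tested genes of this list were called higher, among them Mirlet7i with a log2 ratio of 0.14 and Mir15a with 0.12, and 8 lower, among them Mirlet7g with -0.08 and Mir34c with -0.25. The share called higher lies near the 12.7% over all tested genes, and the 8 of 21 called lower lie above the 21.0%. Those shares are not matched for depth, and 40 of the 51 genes whose counts averaged 10000 or more were called. The list's median was -0.03. Of 15 listed genes known to promote the cell cycle, 12 have a row under those symbols and none stood above Mir26b in placed reads. The same limit holds for 2 of the 12, Mir19b-1 and Mir19b-2. Of these 12, 0 were called higher and 7 lower in pup 2, with Mir17 at a log2 ratio of -0.17 and Mir20a at -0.18, and the median was -0.15. The other listed genes have rows as Mir18, Mir92-1 and Mir92-2, which those counts leave out. They averaged 2639, 1616 and 57.7 CPM. Mir92-1 was called lower in pup 2 (log2 ratio -0.07, adjusted p = 0.020 by the exact binomial test), and Mir18 and Mir92-2 were not called. Against the 21.0% called lower among all tested genes these are descriptions of 2 libraries.

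Seed matches of miR-26 were sought in the 3′ untranslated regions of the host genes, because a microRNA can pair with the transcript of its own host. The motif was TACTTGA, the reverse complement of the seed, on the transcript strand only, in the longest annotated 3′ untranslated region of each gene. The region of Ctdsp2, host of Mir26a-2, held 1 match, while those of Ctdspl and Ctdsp1 held 0. The Ctdsp2 region searched belongs to a shorter, non-principal transcript that begins with an exon at the last base of the Mir26a-2 hairpin. Whether the principal Ctdsp2 transcript, which has the hairpin in an intron, holds the match was not tested. Among regions within 20% of the same length, 23.1% held a match for the length of Ctdsp2, 22.1% for that of Ctdspl and 10.9% for that of Ctdsp1. The region of Ezh2, a known target, held 1 match, which is followed by an A. Of regions like it in length, 2.9% held one. The sites are printed with the match in capitals.
Ctdsp2: agtgttgctctTACTTGAtttgccaaatg
Ezh2: tgaataaagaaTACTTGAacttgttgttg
These are matches of letters in a window, and no messenger RNA was measured.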

How the data were processed

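Small RNA of whole kidney from 2 newborn pups was sequenced. The values deposited by the authors are raw whole-number counts for each microRNA gene, made on assembly mm10 with annotation release M4, per the deposited notes; the aligner is not given in the sources used here, nor are trimming and filters. Of the 3 count columns, the one for the strand of the gene was used, as read from the values: with its unassigned rows each column sums to the same total. Rows naming no gene (multimapping 30.3% and 31.0%, unmapped 8.52% and 8.69%, no listed gene 2.91% and 2.92% of 10014956 and 6700198 reads) stayed out. A count of 0 allows up to 3 counts, 0.514 and 0.780 CPM.

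Identifiers were matched to GENCODE M21 (1894 of 1973 genes) and, by place on GRCm38, to RefSeq sequences (927 genes). CPM (counts scaled to 1000000) used the total over named genes. TMM factors over all genes (edgeR 4.0.16, R 4.3.3), the exact binomial test (scipy 1.17.1, prior count 0.5 in log2 ratios, threshold 0.05), DESeq2 1.42.0 size factors and RNAfold 2.7.2 were used. That test was checked on simulated counts with known changes. They were drawn with counting error alone, so the check did not cover spread between pups. Alternatives were other library sizes, filters, the count column for either strand, edgeR's exact test and leaving out a pup. Named genes are the miR-26 genes, 3 neighbours in rank on each side of Mir26b and 2 of the Mir26a genes, and the 6 highest genes with an identical 5p copy; other names come from fixed lists or were chosen after their values were seen. Members and lists were chosen with earlier results of these data known.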

Additional observations from a re-analysis of the deposited data

How the results depend on the processing

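The levels depend on the denominator. Scaled to all reads, multimapping and unmapped reads included, Mir26b was at 17183 CPM, Mir26a-2 at 35.0 and Mir26a-1 at 13.0, and the family's share was 1.72%. Without Mir10a in the total they were at 35142, 71.6 and 26.6 CPM, and the share was 3.52%. Leaving out each pup in turn put Mir26b between 28844 and 30578 CPM at place 10 to 11, Mir26a-2 between 57.4 and 63.7, Mir26a-1 between 22.1 and 22.8, the family between 2.89% and 3.07%, the share of Mir26b in the family between 99.704% and 99.738%, and the ratio of Mir26a-2 to Mir26a-1 between 2.52 and 2.88. With edgeR's exact test in place of the binomial test Mir26b, at a log2 ratio of -0.11, was not called (adjusted p = 1), and of 324 genes 1 was called in place of 109, Mir451a, with 14 at an unadjusted p under 0.05. Under the other library sizes, filters and count column the adjusted p of Mir26b ran from 1.8e-80 to 3.7e-49 and the log2 ratio from -0.11 to -0.08, and 95 to 110 genes were called. TMM over the filtered genes, one of these, was chosen after seeing the data. No paired analysis was possible because both pups form 1 group. The tables sum both arms of a hairpin and list multimapping reads without a gene. That limits every statement on miR-26a and on other genes that share a stretch with another hairpin.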
